A study of Homo sapiens with 3 samples.

Results

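The RAB genes encode small GTPases of membrane traffic, and here their transcripts were followed in RNA that came down with the RNA helicase DDX49, tagged with Flag, after UV cross-linking. Members were all rows of the deposited gene table whose name was RAB followed by a number and at most 1 letter. This gave 46 of 13247 genes, all kept whatever their level, and every one matched the RefSeq annotation of GRCh38.p14 under the same symbol. RefSeq lists 63 protein-coding genes with such a name, and the other 17 were not analysed here. The study sequenced 3 replicate libraries of 1 group: HHL5 cells, an immortalised human liver line labelled wild type, transfected to make Flag-DDX49 and exposed for 24 h to OA/PA (2/1, 1.5 mM), which usually stands for oleic and palmitic acid. The labels do not say whether the replicates were separate cultures, so their spread may be technical. No input, mock pull-down or untreated library was analysed here. A count therefore joins a transcript's abundance in the cell with its recovery on the beads, and no comparison between conditions was made.

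A RAB protein switches between a GTP-bound form, which recruits effectors to a membrane, and a GDP-bound form. Exchange factors load GTP, activating proteins speed its hydrolysis, and the GDI proteins carry the prenylated GDP form through the cytosol. Each RAB marks particular membranes, and in fat-loaded liver cells RAB18 and RAB7A are known for their places on lipid droplets and in their breakdown through lysosomes.

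The bases before the transcription start are shown for 4 members on which the description turns: RAB7A, the member with the most counts, RAB18, the lipid droplet member with almost none, and RAB11B and RAB25, members of the RAB11 subfamily at opposite ends of the counts. Each is the 250 bases upstream of the RefSeq start (GRCh38.p14), written 5′ to 3′, with every CG pair in capitals.
RAB7A (chr3:128725933-128726182, plus strand): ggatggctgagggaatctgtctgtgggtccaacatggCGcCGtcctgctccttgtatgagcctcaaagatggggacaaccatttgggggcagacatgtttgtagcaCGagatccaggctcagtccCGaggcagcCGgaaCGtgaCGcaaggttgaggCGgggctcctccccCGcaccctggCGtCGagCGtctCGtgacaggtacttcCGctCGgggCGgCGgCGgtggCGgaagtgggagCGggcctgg
RAB18 (chr10:27504054-27504303, plus strand): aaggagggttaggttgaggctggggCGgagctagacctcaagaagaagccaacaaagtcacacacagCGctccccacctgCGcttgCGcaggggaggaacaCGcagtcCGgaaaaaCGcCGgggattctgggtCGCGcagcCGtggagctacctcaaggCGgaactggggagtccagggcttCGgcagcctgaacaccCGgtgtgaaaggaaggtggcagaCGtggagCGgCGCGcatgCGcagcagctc
RAB11B (chr19:8390110-8390359, plus strand): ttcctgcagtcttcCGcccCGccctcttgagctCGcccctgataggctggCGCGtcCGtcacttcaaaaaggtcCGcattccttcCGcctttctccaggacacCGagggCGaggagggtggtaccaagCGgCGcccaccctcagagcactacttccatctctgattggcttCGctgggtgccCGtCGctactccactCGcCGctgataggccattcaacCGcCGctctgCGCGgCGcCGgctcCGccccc
RAB25 (chr1:156060910-156061159, plus strand): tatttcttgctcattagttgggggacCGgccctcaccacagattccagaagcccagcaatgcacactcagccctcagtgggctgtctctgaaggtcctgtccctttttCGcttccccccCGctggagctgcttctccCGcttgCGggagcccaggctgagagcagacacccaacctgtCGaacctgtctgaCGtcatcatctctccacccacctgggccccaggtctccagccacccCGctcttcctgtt

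These windows held 20 CG pairs for RAB7A, 19 for RAB18, 24 for RAB11B and 8 for RAB25. RefSeq gave 57 such windows for 38 members, with a median of 19 CG pairs and a range of 1 to 40, against a median of 20 over the 15311 windows of the table's genes and of 11 over all 35116 windows. The letters GGGCGG, searched on both strands, stood in 43 of the 57 member windows (75.4%), against 62.0% of the windows of the table's genes and 42.6% of all windows. Of the members with a mean below 1 CPM, 4 had a window, and RAB4B (25 CG pairs), RAB40B (24) and RAB18 lay close to or above the member median while RAB25 lay below it. A match of letters is only a description of the window.

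The libraries held 2023133, 1461858 and 1096586 counts in replicates 1, 2 and 3, so a single count equalled 0.494, 0.684 and 0.912 CPM (counts scaled to a library total of 1000000). For a gene with 0 counts the limit, 3 counts of each total, was 1.48, 2.05 and 2.74 CPM, for counting error only. CPM is not divided by transcript length, since none of the tables used here gave one. Values of different genes are therefore reads recovered per gene, not molecules, and only the same gene across libraries is on 1 scale. Of 10 hepatocyte markers 3 were in the table, and 1 of these reached 1 CPM, the urea cycle enzyme CPS1 (1726 ± 45.9 CPM, SD, n = 3), while FGB had 0 counts. Of 5 simple epithelial and biliary markers 4 were in the table, 3 keratins reached 1 CPM and KRT19 had 0 counts, with a summed level of 13917 to 15570 CPM across libraries. Endothelial markers (2 of 4 in the table, 147.8 to 163 CPM summed), stellate cell and fibroblast markers (5 of 5, 1133 to 1234 CPM, COL1A1 at 0) and immune markers (1 of 3, CD14 at 0) completed the check. Nearly all of the endothelial sum was ENG (mean 154 CPM), with CDH5 at 3.07 CPM. Most of the stellate cell and fibroblast sum was VIM (mean 1104 CPM), with COL3A1, PDGFRB and ACTA2 at 42.5, 31.1 and 5.76 CPM. DDX49 itself had 35313, 41455.5 and 50927 CPM in replicates 1, 2 and 3 (42565 ± 7866). The cells were transfected to make Flag-DDX49, and reads of the construct and of the cell's own gene were not told apart.

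Most RAB transcripts were recovered, and a few of them took most of the family's counts. A mean of at least 1 CPM was reached by 40 of the 46 members (87.0%), against 81.6% of all genes in the table. At least 10 CPM was reached by 31 (67.4%), against 59.3% of all genes, and 39 had a count in each library (84.8%), against 79.4%. The median member had 24.7, 22.2 and 21.9 CPM in replicates 1, 2 and 3, against 17.3, 16.4 and 16.4 CPM for the median gene of the table. On the log2(CPM + 1) scale the members' median lay 0.43 ± 0.05 above that of all genes (SD, n = 3). That distance depended on the genes counted: with members and genes both restricted to a mean of at least 1 CPM it was -0.01 ± 0.03, and with all 46 members against those genes it was -0.21 ± 0.05. No test was made, since 3 libraries cannot give a sign-flip p below 0.25. Together the members took 0.215% (95% Wilson interval 0.209 to 0.222), 0.212% (0.205 to 0.2198) and 0.208% (0.1999 to 0.217) of the counts, intervals that overlap.

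RAB7A, the GTPase of late endosomes and lysosomes, alone took 24.7%, 23.4% and 27.2% of the family's counts. With RAB8A, RAB1B, RAB13 and RAB34, the only others with a mean of at least 100 CPM, it made up 53.4% ± 1.38 of them (SD, n = 3). At the other end 6 members had a mean below 1 CPM (RAB4B, RAB36, RAB40B, RAB18, RAB25 and RAB44), and 9 lay from 1 to 10 CPM. Of the 6, RAB4B alone had 0 counts in every library. The plot of members by compartment shows each of these values.

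**Figure D1:**
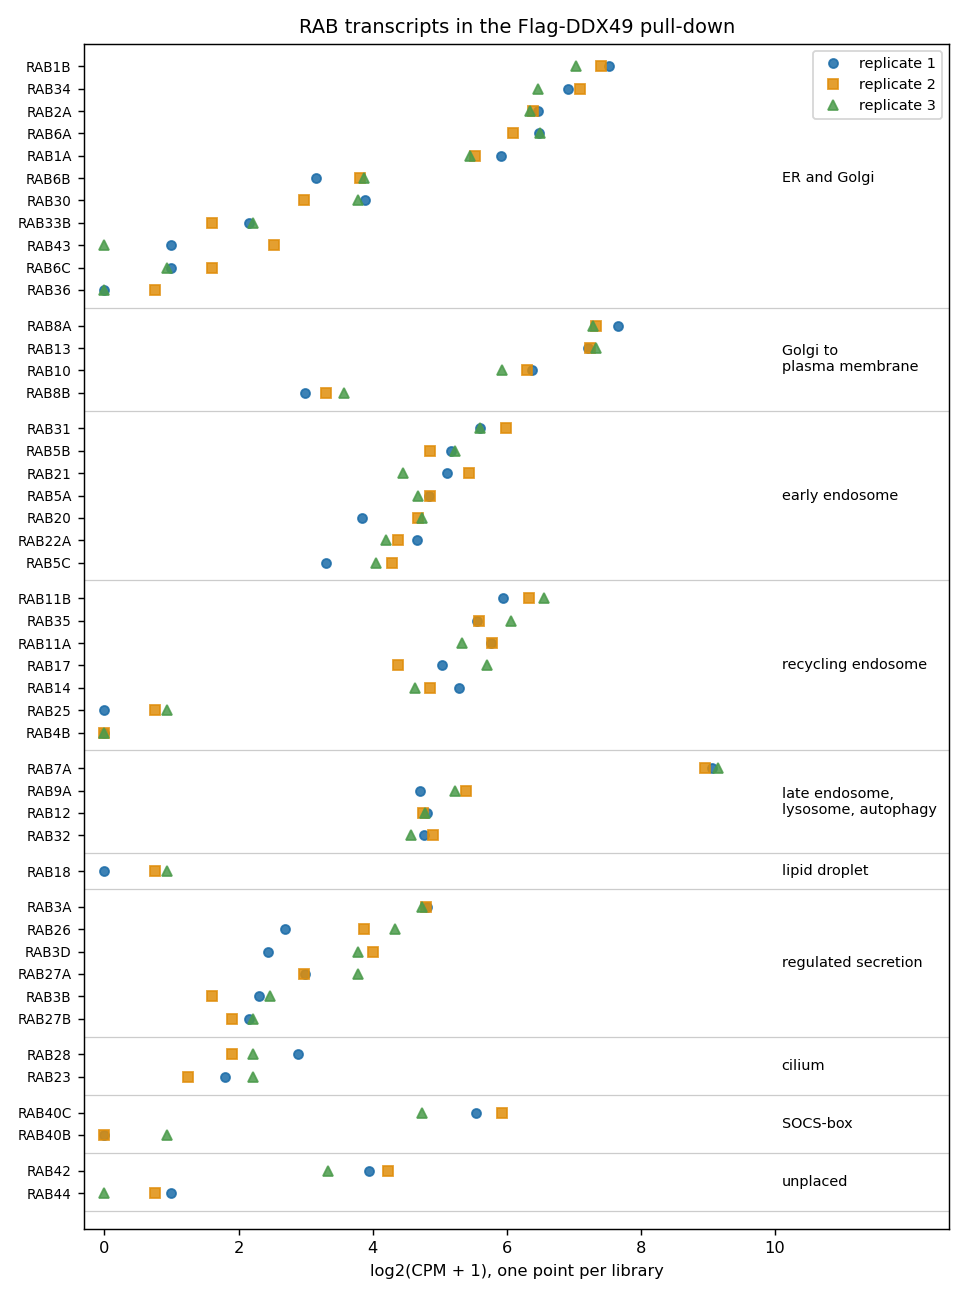
Level of each of the 46 RAB transcripts, as log2(CPM + 1) on the horizontal axis, grouped by the compartment its protein is best known for. Each point is 1 library; RAB7A lies far to the right at 497 to 567 CPM, while RAB18, RAB25, RAB36, RAB40B, RAB44 and RAB4B lie near 0.

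Transcripts of the RABs of the endoplasmic reticulum (ER) and Golgi fell into 5 members with a mean of 49.1 CPM or more and 6 with at most 11.5 CPM. RAB1B and RAB1A both act in transport from the ER to the Golgi. RAB1B had 183, 169 and 129 CPM in replicates 1, 2 and 3 (161 ± 27.9, SD, n = 3 here and below), and RAB1A had 59.3, 45.1 and 42.9 CPM (49.1 ± 8.91). Both were lowest in replicate 3. RAB34, which is known at the Golgi and in the positioning of lysosomes, had 120.1, 135 and 87.5 CPM. RAB2A, of the ER to Golgi intermediate membranes, was steady at 87.0, 82.8 and 80.2 CPM. The Golgi RAB6A had 88.5, 67.0 and 89.4 CPM, and its paralog RAB6B, best known from brain, had 7.91, 13.0 and 13.7 CPM. RAB6A was lowest in replicate 2 and RAB6B in replicate 1. By a chi-square test of each gene's counts between libraries, neither differed at an adjusted p below 0.05 (adjusted p = 0.158 and 0.384). RAB30, a Golgi protein, had 13.8, 6.84 and 12.8 CPM. The remaining 4 were near the counting limit: RAB33B, which binds the autophagy factor ATG16L1, had 7, 3 and 4 counts, RAB43 had 2, 7 and 0, RAB6C had 2, 3 and 1, and RAB36 had 0, 1 and 0. RAB6C is a near-identical intronless copy of RAB6A, so the split of reads between them is uncertain. The median of the 11 members was 13.5 ± 0.447 CPM, and they held 24.4% ± 2.11 of the family's counts.

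Members that carry cargo from the Golgi to the plasma membrane were recovered well, with 1 exception. RAB8A, which drives polarised exocytosis, had 200.2, 161 and 155 CPM (172 ± 24.6), and its paralog RAB8B had 6.92, 8.89 and 10.9 CPM (8.92 ± 2.01). RAB8A was highest and RAB8B lowest in replicate 1. RAB8B had only 14, 13 and 12 counts, and no difference was called (chi-square between libraries, adjusted p = 0.649). With so few counts that is no proof of equal levels. RAB13, known for tight junction assembly, had 147, 149.8 and 159.6 CPM and varied little. RAB10, which moves glucose transporter vesicles and acts on ER tubules, had 82.1, 78.0 and 60.2 CPM. The median of these 4 was 112 ± 3.79 CPM.

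All 7 early endosome members had a mean of at least 10 CPM, against 59.3% of all genes. The chi-square test between libraries of each gene's counts called 0 of the 7, against 19.6% of all genes tested, and RAB21 was called when replicate 1 was left out (adjusted p = 0.0482). The RAB5 proteins govern early endosome fusion. RAB5B had 35.1, 28.0 and 36.5 CPM, RAB5A had 27.7, 28.0 and 24.6 CPM, and RAB5C had 8.90, 18.5 and 15.5 CPM. RAB5C was lowest in replicate 1, while the ranges of RAB5A and RAB5B met at 28.0 CPM. RAB31 and RAB22A, close relatives that sort receptors at endosomes, had 47.5, 62.2 and 47.4 CPM and 24.2, 19.8 and 17.3 CPM. RAB21, which follows integrins inward, had 33.6, 42.4 and 21.0 CPM, and RAB20, known from phagosomes, had 13.3, 24.6 and 25.5 CPM. Replicate 3 was lowest for RAB21 and replicate 1 for RAB20. The median of the 7 was 26.8 ± 1.88 CPM, and they held 9.47% ± 0.937 of the family's counts.

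Among recycling endosome members 5 had means of 29.9 to 77.7 CPM and 2 were near 0. RAB11B and RAB11A run the slow recycling route. RAB11B had 60.8, 79.4 and 93.0 CPM (77.7 ± 16.2), and RAB11A had 53.4, 54.0 and 39.2 CPM (48.9 ± 8.38). RAB11B was highest and RAB11A lowest in replicate 3. The chi-square test between libraries called RAB11B (adjusted p = 0.0319) and not RAB11A (adjusted p = 0.332). Their epithelial relative RAB25 had 0, 1 and 1 counts. Of the epithelial keratins, KRT8, KRT7 and KRT18 had 6409 ± 620, 5813 ± 143 and 2608 ± 127 CPM in the same libraries, and KRT19 had 0 counts in each. RAB35, of the fast route from the plasma membrane, had 46.0, 47.2 and 65.7 CPM. RAB17, known from transcytosis in epithelia, had 31.6, 19.8 and 51.1 CPM and was highest in replicate 3. RAB14, which links endosomes and the Golgi, had 38.1, 28.0 and 23.7 CPM. RAB4B, an early recycling protein, had 0 counts in all libraries. Its span on chromosome 19 (40778247 to 40796942, hg38) overlaps the RefSeq read-through genes MIA-RAB4B and RAB4B-EGLN2, and no source used here states how reads shared by overlapping genes were counted. The median of the 7 was 35.1 ± 6.14 CPM.

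The late endosome, lysosome and autophagy group was led by RAB7A, with 1078, 726 and 622 counts, or 533, 497 and 567 CPM (532 ± 35.3). The gene (ENSG00000075785) spans 128726183 to 128814798 on chromosome 3 (hg38). That span overlaps the RefSeq entries FTH1P4, MARK2P8, RN7SL698P and RPS15AP16, and how reads shared with them were counted is not known. RAB9A, which returns receptors of lysosomal enzymes to the Golgi, had 25.2, 41.0 and 36.5 CPM. RAB12, which routes the transferrin receptor to lysosomes, had 27.2, 26.0 and 26.4 CPM, the smallest spread of all tested members on the log2 scale (SD 0.03). RAB32, of lysosome-related organelles, had 26.2, 28.7 and 22.8 CPM. These last 3 overlapped in range. With RAB7A the 4 genes held 29.2% ± 1.86 of the family's counts, and their median was 31.0 ± 4.12 CPM.

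RAB18, the RAB best known on lipid droplets, was almost absent from the counts. It had 0, 1 and 1 counts in replicates 1, 2 and 3, below the limit that a count of 0 allows in each library. The gene (ENSG00000099246) spans 27504304 to 27542239 on chromosome 10 (hg38), and the only annotated gene overlapping that span was the lncRNA LOC124902399. Its regulators differed from each other: RAB3GAP1, a subunit of the RAB18 exchange factor, had 60.3, 48.6 and 58.4 CPM, the partner subunit RAB3GAP2 had 0 counts in all libraries, and TBC1D20, a protein that activates GTP hydrolysis by RAB18 and RAB1, had 41.0, 32.8 and 33.7 CPM. A gene that growing cells use, the translation elongation factor EEF1G, also had 0 counts in all libraries, so a 0 in this table is given as listed. Why these genes had no counts was not tested. Other members with a known place on lipid droplets, RAB7A, RAB8A and RAB10, were recovered at the levels given above, and with them the droplet group of 4 had a median of 123 CPM in place of 0.532. In the deposited annotation, which gives the term lipid particle to RAB7A and RAB5C and not to RAB18, the pair had a median of 273 CPM.

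Members of regulated secretion had a median of 9.32 ± 3.995 CPM over 6 genes. RAB3A, a synaptic vesicle protein, had 27.2, 26.7 and 25.5 CPM, and RAB3D, of secretory granules, had 4.45, 15.0 and 12.8 CPM. RAB26, also of secretory granules, had 5.44, 13.7 and 19.2 CPM. Replicate 1 was lowest for RAB3D and RAB26, while RAB3A hardly varied. RAB27A, which docks exosome-bearing endosomes at the plasma membrane, had 6.92, 6.84 and 12.8 CPM. RAB27B had 7, 4 and 4 counts, and RAB3B had 8, 3 and 5. The members placed by hand at the cilium had few counts: RAB28 had 13, 4 and 4 and RAB23, a regulator of Hedgehog signalling, had 5, 2 and 4. The deposited annotation instead gives cilium terms to RAB8A, RAB10, RAB14 and RAB28, whose median was 51.7 ± 9.13 CPM. Of the members with a SOCS box, which links them to cullin ubiquitin ligases, RAB40C had 45.5, 60.2 and 25.5 CPM and RAB40B had 0, 0 and 1 counts. RAB42 had 14.3, 17.8 and 9.12 CPM and RAB44 had 2, 1 and 0 counts, and neither was placed in a compartment.

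Within 9 sets of paralogs with more than 1 member in the table, 1 gene often took most of the reads. RAB8A held 96.7% (95% Wilson interval 94.5 to 98.0), 94.8% (91.2 to 96.9) and 93.4% (88.8 to 96.2) of the counts shared by RAB8A and RAB8B. RAB6A held 87.4% ± 4.06 of the set with RAB6B, and RAB1B 76.5% ± 2.07 of the set with RAB1A. RAB1B had 3.09, 3.74 and 3.02 times the counts of RAB1A, so their split changed little between libraries. RAB31 held 71.8% ± 4.98 of the set with RAB22A and RAB27A 72.0% ± 5.57 of the set with RAB27B. RAB40C held 98.9% ± 1.99 of the set with RAB40B, and RAB3A 65.6% ± 9.34 of its set. RAB5A and RAB5B shared most of the reads of their set, 36.1% ± 3.49 and 44.7% ± 6.20, and RAB5C had 19.1% ± 6.25. In the RAB3 and RAB11 sets the intervals of a member's share did not overlap between a pair of libraries. These cases were picked from all members and library pairs of the 9 sets, with no adjustment for that search. RAB3D and RAB11B were also called by the chi-square test between libraries, which used the same counts. RAB3D held 12.5% (6.72 to 22.1) of its set in replicate 1, 34.4% (23.9 to 46.6) in replicate 2 and 29.8% (18.7 to 44.0) in replicate 3, and the intervals of replicates 1 and 2 did not overlap. RAB11B held 53.2% (46.8 to 59.6) of it in replicate 1, 59.2% (52.2 to 65.8) in replicate 2 and 69.9% (62.0 to 76.7) in replicate 3, and the intervals of replicates 1 and 3 did not overlap. These are shares of reads, which longer transcripts raise, and no source used here states how reads fitting several paralogs were assigned.

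**Figure D2:**
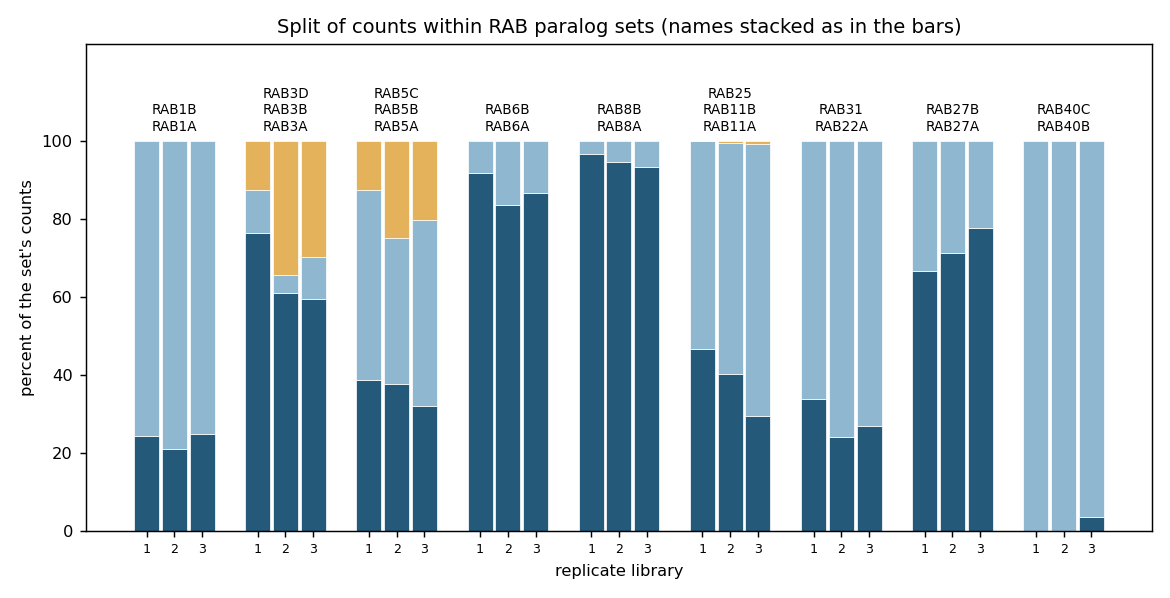
Percent of the counts of each paralog set (vertical axis) held by each member in replicate libraries 1, 2 and 3 (bars); names above a set are stacked in the order of the bar segments. RAB8A holds 93.4% to 96.7% of its pair, while RAB11B holds 53.2% to 69.9% of its set.

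A minority of RAB transcripts varied across libraries beyond counting error, at a share not far from that of all genes tested. A chi-square test of each gene's 3 counts against the library totals was run over the 8633 genes whose counts summed to 30 or more, and p-values were adjusted over all of them by Benjamini and Hochberg. It called 8 of the 33 members tested (24.2%), against 19.6% of all genes tested, at an adjusted p below 0.05. The other 13 members had too few counts to be tested. The test compares libraries of 1 group and says nothing about a treatment. It sets their differences against counting error alone, and amplified reads are not independent molecules. RAB17 (chi-square, adjusted p = 0.00186) was highest in replicate 3 and RAB40C (adjusted p = 0.00418) lowest there. RAB1B (chi-square, adjusted p = 0.0166) and RAB34 (adjusted p = 0.0169) were also lowest in replicate 3. RAB26 (chi-square, adjusted p = 0.0154), RAB3D (adjusted p = 0.0282) and RAB11B (adjusted p = 0.0319) were lowest in replicate 1, while RAB8A (adjusted p = 0.0252) was highest in it. The highest library exceeded the lowest by 3.52 times for RAB26 and 3.38 times for RAB3D, the members with the largest spread among those of at least 10 CPM (SD 0.85 and 0.84 log2 units). The same ratio was 2.57 for RAB17, 2.36 for RAB40C and 1.29 to 1.55 for RAB8A, RAB1B, RAB11B and RAB34. RAB5C had the fifth largest spread (SD 0.51 log2 units) and was not called (chi-square, adjusted p = 0.138).

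The set of members called changed with each library left out. Without replicate 1, 4 of 30 members were called, against 6.77% of all genes tested: RAB17, RAB40C and RAB34 remained and RAB21 was added (chi-square, adjusted p = 0.0482). Without replicate 2, 6 of 30 were called, against 16.6% of all genes, with RAB34 just past the threshold (chi-square, adjusted p = 0.0506) and RAB3D left with too few counts. Without replicate 3 RAB3D was the only one called of 31, against 5.80% of all genes. Scaling the totals by TMM factors or by DESeq2 size factors took RAB8A past the threshold (chi-square, adjusted p = 0.0666 and 0.0777) and left the other 7 called. Under these scalings 18.6% and 18.5% of all genes tested were called. The 25 tested members that were not called included RAB7A (chi-square, adjusted p = 0.147), RAB13 (0.784), RAB2A (0.877), RAB5A (0.909) and RAB3A (0.98), which is no proof that they did not differ.

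**Figure D3:**
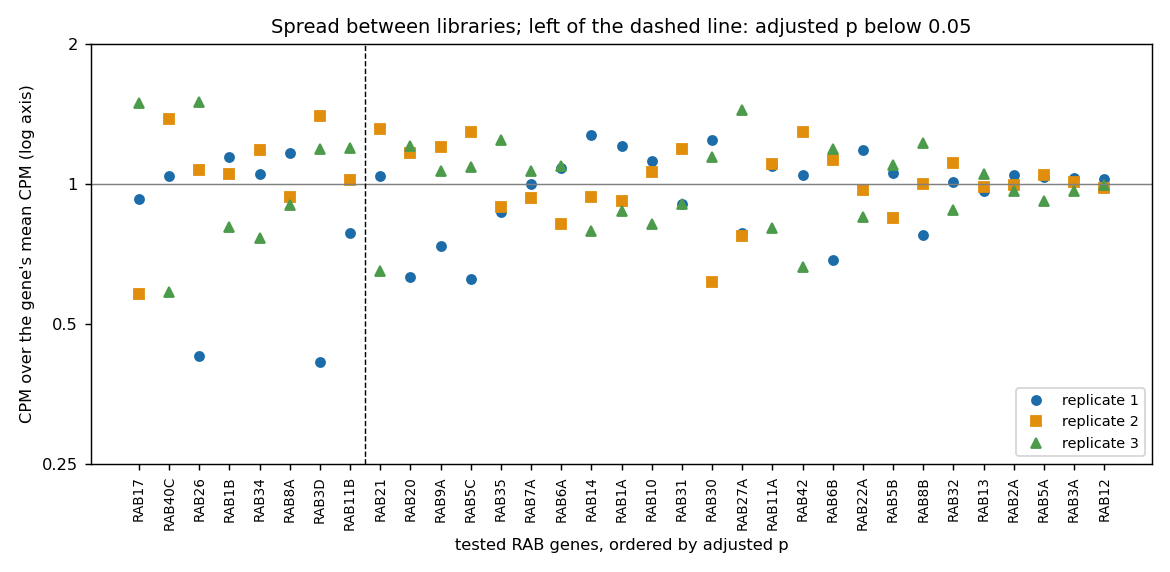
CPM in each library divided by the gene's mean CPM (vertical log axis) for the 33 tested RAB genes, ordered by adjusted p. Points are libraries; the 8 genes left of the dashed line had an adjusted p below 0.05, and RAB26 and RAB3D lie lowest in replicate 1.

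Genes that load, release and read RAB proteins were mostly recovered too. Of 125 listed regulators 116 were in the table and 108 of these had a mean of at least 1 CPM, against 81.6% of all genes. All 7 genes of prenylation and recycling reached it, 32 of 38 exchange factors, 33 of 34 activating proteins and 36 of 37 effectors. Their medians were 39.4 ± 2.28, 15.4 ± 2.70, 27.4 ± 3.45 and 40.0 ± 4.64 CPM, against 22.9 ± 1.54 CPM for the RAB genes and 16.7 ± 0.510 CPM for all genes.

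GDI2, which extracts RAB proteins from membranes, led the first class with 223, 278 and 239 CPM and was highest in replicate 2. The escort protein CHML had 66.7, 64.3 and 66.6 CPM and varied little. The exchange factors with the most reads were SBF1 (147.9 ± 14.3 CPM), MADD, which acts on RAB3 and RAB27 (101 ± 21.8 CPM), and DENND5A (97.4 ± 14.4 CPM). Among activating proteins these were TBC1D9B (318 ± 13.3 CPM), TBC1D10B (240.3 ± 8.13 CPM) and TBC1D2, which acts on RAB7A (111 ± 9.46 CPM). The effectors were led by the Golgi matrix protein GOLGA2 (251 ± 2.56 CPM), the RAB5 effector RABEP1 (222 ± 18.4 CPM) and PLEKHM2, an adaptor for lysosome movement (189 ± 14.3 CPM). Below 1 CPM were the exchange factors RAB3GAP2, RABGEF1, DENND2A, DENND2C, DENND4C and DENND6B, the activating protein SGSM1 and the effector LRRK2, named after their values were seen.

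Between libraries, 13 of 96 regulators tested were called, against 19.6% of all genes tested. These were 2 of 6 genes of prenylation and recycling (GDI2 and CHM), 5 of 28 exchange factors (MADD, RAB3IL1, GAPVD1, DENND4B and MON1A), 5 of 28 activating proteins (TBC1D4, TBC1D17, TBC1D14, SGSM2 and TBC1D16) and 1 of 34 effectors (RILPL1), all but GDI2 and MADD named after their values were seen. TBC1D4, which acts on RAB10, had 103, 67.0 and 52.9 CPM and the smallest adjusted p among them (chi-square, adjusted p = 9.95e-05). It was highest in replicate 1, as was TBC1D17 (57.3, 24.6 and 36.5 CPM). Leaving out a library changed the count: 1 of 82 regulators tested was called without replicate 1, 9 of 88 without replicate 2 and 5 of 93 without replicate 3, against 6.77%, 16.6% and 5.80% of all genes tested.

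**Figure D4:**
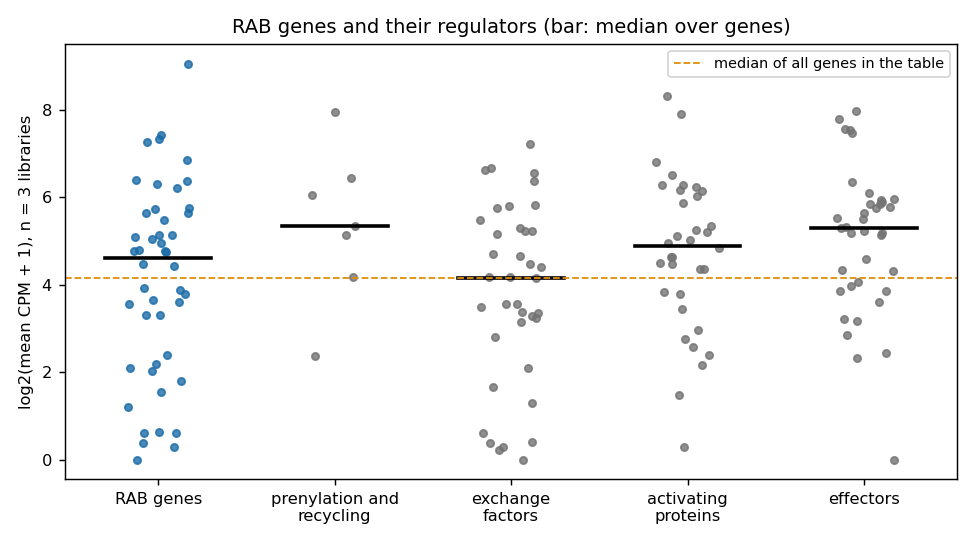
Mean level over 3 libraries, as log2(mean CPM + 1), of the 46 RAB genes and of 4 classes of their regulators; each point is a gene and the black bar is the class median. The dashed line is the median of all genes in the table (16.8 CPM), and the RAB genes' median lies above it at 23.5 CPM.

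The deposited annotation, which the membership did not use, gave 27 of the 46 members (58.7%) a Golgi term, against 8.58% of all genes in the table. Phagocytic vesicle terms went to 16 members (34.8%) against 0.445% of genes, early endosome terms to 11 (23.9%) against 1.82%, recycling endosome terms to 9 (19.6%) against 0.845% and terms of late endosomes or lysosomes to 9 (19.6%) against 3.43%. Members with a Golgi term had a median of 33.7 ± 7.30 CPM, against 27.6 ± 1.01 CPM for all genes with one. Those with a recycling endosome term had 52.8 ± 1.56 CPM, against 24.7 ± 2.26 CPM, and those with an early endosome term 28.8 ± 4.54 CPM, against 30.7 ± 2.49 CPM. For late endosomes or lysosomes the medians were 27.2 ± 0.801 and 28.5 ± 1.01 CPM, within their spread, and no test was made on any of these. The annotation places many members on several membranes, so the groups overlap.

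The 46 genes lie on 19 chromosomes, most often chromosome 19, which holds 5 (RAB3A, RAB3D, RAB4B, RAB8A and RAB11B). The spans of 11 overlap another protein-coding gene of the reference: RAB1A, RAB3A, RAB3D, RAB5A, RAB6B, RAB8A, RAB14, RAB23, RAB27A, RAB36 and RAB43. RAB5C, RAB6C, RAB8A, RAB11B, RAB12 and RAB33B overlap annotated antisense RNAs. No source used here states whether counting used strand, so reads of these genes and of their neighbours cannot be told apart with certainty.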

How the data were processed

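RNA immunoprecipitated with Flag-DDX49 was sequenced in 3 libraries. Raw counts per gene were deposited by the authors, per the file headers, and the submitters' processing notes name CASAVA 1.4 and hg38. The aligner, the counting tool, its use of strand and its treatment of shared reads were named in no source used here. A further 3 per-sample columns, repeating the names of the count columns, were not used.

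Counts were divided by the library total and scaled to 1000000 (CPM), with 1 CPM added before taking log2. Members were compared across libraries with a chi-square test over all genes whose counts summed to 30 or more, Benjamini-Hochberg adjusted at 0.05. The test covers counting error only. No coding length was at hand, so paralogs were compared as shares of counts in place of the length-scaled ratios planned. Each RAB gene was placed by hand in 1 compartment. The members, compartments and regulator lists were chosen with earlier results of these data known. Genes named are all members, the 3 highest of each regulator class by mean CPM, and those marked as chosen after their values were seen; 1 of the genes so chosen is not reported here. Intervals of shares are Wilson intervals at 95%. Gene spans and promoter windows came from RefSeq GRCh38.p14, the assembly of hg38. Alternatives were other count minimums, library scalings, pseudocounts, backgrounds and memberships, and leaving out each replicate. Versions were Python 3.11.15, numpy 2.4.6, scipy 1.17.1, pandas 2.3.3, matplotlib 3.10.9, R 4.3.3, edgeR 4.0.16 (TMM factors) and DESeq2 1.42.0 (size factors).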

Additional observations from a re-analysis of the deposited data

How the results depend on the processing

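Totals without DDX49 and membership from the deposited annotation were tried after seeing the data, and all other alternatives were planned. Of 151 recomputed summary values 122 were taken as unchanged. For levels and shares this meant within 1 SD of the main value. Leaving out 1 of 3 libraries cannot move a mean that far, so those values were bound to come out unchanged. They are no sign of stability. For counts of genes it meant within a fixed ratio of the main count. Such counts could still move: members called went from 8 to 6 without replicate 2. Members detected went from 40 to 31 when a mean of at least 10 CPM was asked. Against genes of at least 1 CPM the family level was -0.0052 ± 0.035 (log2, SD) with members filtered alike, within its spread of 0. With members unfiltered it was -0.21 ± 0.051, since that background has no genes below 1 CPM. Other membership moved the compartment medians to 29.9 CPM (ER and Golgi), 151 (Golgi to plasma membrane), 23.3 (early endosome), 48.1 (recycling endosome) and 123 (lipid droplet), and the annotation terms gave 30.4, 28.8, 52.8 and 273 CPM for ER and Golgi, early endosome, recycling endosome and lipid droplet, and 51.7 for the cilium. Without DDX49 in the totals the family took 0.221% of the counts, and medians were 14.1 (ER and Golgi) and 117 CPM (Golgi to plasma membrane), as smaller totals raise every level. Leaving out replicate 1, 2 or 3, 1 to 6 of 30 or 31 members were called, against 6.77%, 16.6% and 5.80% of all genes tested. Among 82 to 93 regulators tested, 0 to 1 genes of prenylation and recycling and 1 to 2 exchange factors were then called. So were 0 to 4 activating proteins and 0 to 3 effectors. With a replicate left out fewer libraries were tested, and other causes were not tested. TMM scaling called 2 effectors, when 18.6% of all genes tested were called. Length-scaled ratios and medians were not run, since no transcript or coding length was at hand. No paired analysis was possible because all 3 libraries belong to 1 group. At this depth 13 members had too few counts for a comparison of libraries.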
